A study of Mus musculus with 18 samples.

Results

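The subunits of the transcription factor NF-kappaB and the proteins that restrain them were examined as 10 genes: the subunit genes Nfkb1, Nfkb2, Rel, Rela and Relb, the IkappaB-type genes Nfkbia, Nfkbid, Nfkbie and Nfkbiz, and Tnfaip3, which encodes A20. They were found by symbol in a table of 15402 genes. All 10 were present and all 10 were among the 13190 genes tested.

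NF-kappaB acts as pairs of Rel-family proteins that are held in the cytoplasm by IkappaB proteins until a receptor, in T cells chiefly the antigen receptor with CD28 or a TNF receptor family member, triggers IkappaB degradation. In the canonical arm p50 (from Nfkb1) pairs with RelA or c-Rel, and in the alternative arm p52 (from Nfkb2) pairs with RelB. Several of the inhibitor genes are themselves induced by NF-kappaB, which closes a negative loop, and c-Rel is known for its part in Foxp3 induction and the making of regulatory T cells.

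The RNA came from female C57/BL6 Foxp3Timer Foxp3-IRES-GFP mice, which carry a Foxp3-driven fluorescent Timer protein that is blue when new and matures to red. All groups, controls included, carried these alleles and had 3% oxazolone on the abdominal skin 5 days before draining lymph nodes were taken. The Timer- groups were naive CD44lo cells (Tnaive) and activated CD44hi cells (Teff). The Timer+ groups, named by Blue and Red fluorescence, were Pers1 and Pers2, with persistent Foxp3 transcription, PAt, labelled as quiescent regulatory T cells, and Arrested, with Foxp3 transcription stopped. Each of the 6 populations had 3 libraries, 18 in all. Replicates came from pooled mice, and a gate on Timer colour reports the activity of the Foxp3 gene and not that of any NF-kappaB protein.

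Values are the deposited log2 normalised counts, and differences are log2 differences with the limma standard error. "Rose" and "fell" mark an adjusted p under 0.05 over all genes tested, and "called" adds an absolute log2 difference over 1. Read depth is unknown, so precision rests on the spread between the 3 libraries. The labels were checked against markers. All 6 CD4 T cell markers were tested, with a summed level of 16.52 to 17.06 in every population, and the summed regulatory T cell markers lay at 16.15 to 17.10 in Timer+ libraries against 12.32 to 14.35 in Timer- libraries. Foxp3 RNA itself differed little between the Timer gates. Its mean was 14.42 in Arrested cells, 14.53 in PAt cells, 14.61 in Pers1 cells and 14.82 in Pers2 cells, and the persistent populations were higher by 0.24 ± 0.05 (adjusted p = 1.39e-04). Markers of other cells were not absent, although the labels give every population as CD4+ T cells. In Teff, the summed level of the 9 myeloid and dendritic cell markers in the table was 11.71 to 12.15, against 7.36 to 8.69 in all other populations, and that of the 7 B cell markers was 12.69 to 13.22, against 9.83 to 12.36. The 6 CD8 T cell and NK cell markers summed to 11.82 to 12.23 in Teff, against 9.93 to 11.15. Cd14 and Batf3 stayed below a log2 value of 3 in every library. In these bulk libraries fewer cells of a type and less RNA per cell cannot be told apart.

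Promoters are shown because several of these genes are known NF-kappaB targets and some of them moved together. RefSeq windows on GRCm38.p6, running from 250 bases before to 50 after an annotated start site, were matched by symbol for 7 of the 10 genes (12 windows). Nfkb1, Relb and Nfkbiz had no entry. Both strands were searched for the kappaB consensus, by that name, and for the shorter GGNNNTTCC, which overlaps it. The consensus was held by 8.46% of all 32851 windows and GGNNNTTCC by 18.5%. Among the members' windows 8 of 12 held the consensus and 10 of 12 held GGNNNTTCC. Only the second Tnfaip3 window, at 47.0% GC, lay below the median of 52.67% over all windows, and the Rel window reached 75.0%. The shares were not matched for GC content. The windows of the later Nfkb2 start sites overlap and share 1 site, which is counted in both. The following windows are written 5′ to 3′ on the gene's strand, with matches to either motif in capitals, for Nfkb2, chr19:46304487-46304786 (+), Rel, chr11:23770920-23771219 (-), Rela, chr19:5637291-5637590 (+), Nfkbia, chr12:55492598-55492897 (-), and Tnfaip3, chr10:19015361-19015660 (-).
Nfkb2: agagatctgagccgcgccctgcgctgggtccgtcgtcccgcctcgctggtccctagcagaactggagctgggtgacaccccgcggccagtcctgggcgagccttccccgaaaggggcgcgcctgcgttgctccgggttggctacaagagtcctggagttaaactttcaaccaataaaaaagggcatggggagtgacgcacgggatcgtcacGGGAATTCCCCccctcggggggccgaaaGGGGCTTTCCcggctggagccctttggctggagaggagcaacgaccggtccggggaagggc
Rel: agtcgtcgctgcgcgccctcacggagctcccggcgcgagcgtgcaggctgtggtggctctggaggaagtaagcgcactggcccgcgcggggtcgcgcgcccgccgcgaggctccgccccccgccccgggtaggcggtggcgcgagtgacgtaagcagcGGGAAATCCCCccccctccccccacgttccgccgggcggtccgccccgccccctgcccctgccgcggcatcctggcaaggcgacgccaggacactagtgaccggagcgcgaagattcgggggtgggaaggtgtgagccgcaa
Rela: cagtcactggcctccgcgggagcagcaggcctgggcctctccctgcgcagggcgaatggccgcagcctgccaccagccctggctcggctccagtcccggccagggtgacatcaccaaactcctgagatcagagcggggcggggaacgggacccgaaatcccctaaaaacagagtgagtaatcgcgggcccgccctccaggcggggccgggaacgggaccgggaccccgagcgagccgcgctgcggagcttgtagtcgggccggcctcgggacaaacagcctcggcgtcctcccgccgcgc
Nfkbia: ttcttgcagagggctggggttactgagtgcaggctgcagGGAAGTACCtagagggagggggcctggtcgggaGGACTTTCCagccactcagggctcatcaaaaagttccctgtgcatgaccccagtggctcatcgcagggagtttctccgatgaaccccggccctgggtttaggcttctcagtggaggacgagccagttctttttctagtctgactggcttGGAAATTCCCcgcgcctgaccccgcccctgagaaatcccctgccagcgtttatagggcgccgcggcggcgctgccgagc
Tnfaip3: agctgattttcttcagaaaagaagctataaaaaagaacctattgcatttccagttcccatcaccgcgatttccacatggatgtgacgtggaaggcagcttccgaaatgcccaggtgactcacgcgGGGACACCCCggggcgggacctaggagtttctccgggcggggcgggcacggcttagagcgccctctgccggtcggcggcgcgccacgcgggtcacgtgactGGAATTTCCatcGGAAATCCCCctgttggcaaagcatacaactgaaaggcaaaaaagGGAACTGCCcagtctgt
The Nfkb2 window held matches to the consensus at bases -39 to -29 and -11 to -2, the Rel window at -92 to -82, the Nfkbia window at -29 to -20, and the Tnfaip3 window at -125 to -116 and -12 to -3. The Rela window held neither motif. A match is a string of letters and not a binding measurement.

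**Figure D1:**
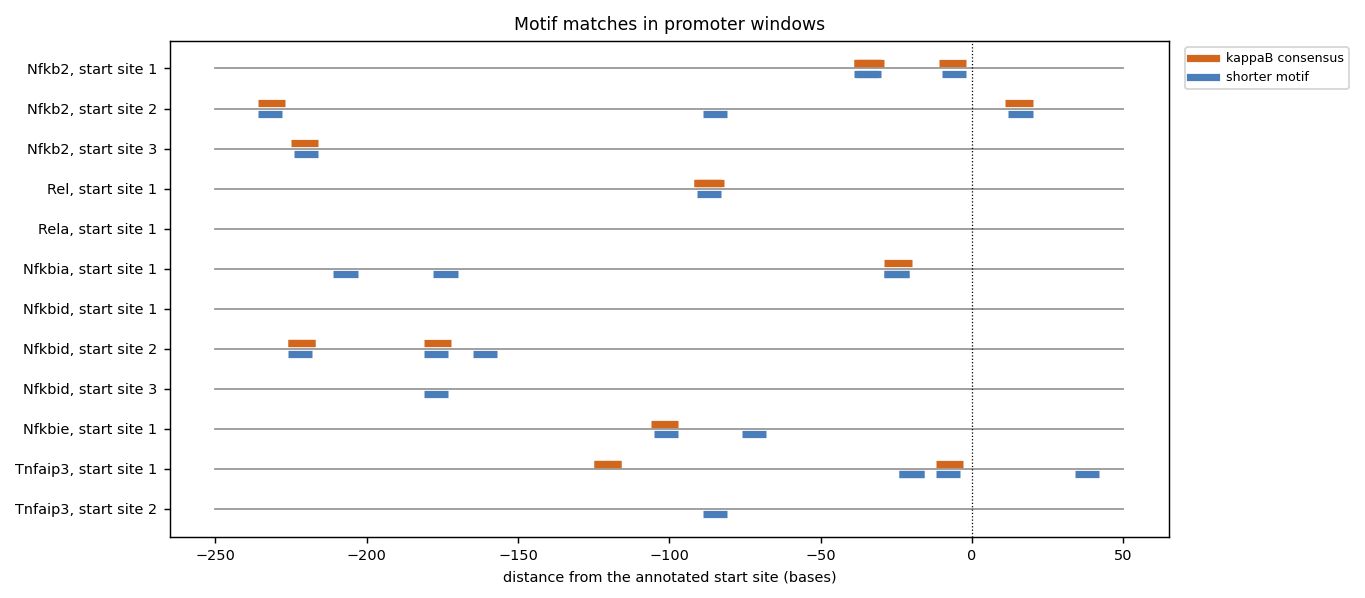
Matches to the kappaB consensus and to the shorter motif in 12 RefSeq promoter windows of 7 genes, against the distance in bases from the annotated start site. Rela and the first Nfkbid window had none, and Nfkb2 had consensus matches in all 3 of its windows.

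Levels of different genes were compared roughly, per kilobase of annotated exon. The mean over 18 libraries was highest for Nfkbia (12.25 on the log2 scale), which encodes IkappaBalpha, and for Tnfaip3 (11.41). Rela followed at 10.67, Nfkbid at 10.51, Nfkb1 at 10.08, Nfkb2 at 10.06 and Nfkbiz at 10.03. Relb (9.27), Nfkbie (8.997) and Rel (7.50) were the lowest. Exon lengths are those of GENCODE and may differ from those the authors counted. They merge the exons of all annotated transcripts of a gene, 12061 bases for Nfkb1. Where the expressed transcripts are shorter, the value is too low, so the order is approximate.

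The first question was how the 10 genes differed between cells with persistent Foxp3 transcription, Pers1 together with Pers2, and the other Timer+ cells, PAt together with Arrested. None was called, where 7.51% of all genes were. By adjusted p alone 2 rose, Nfkb2 and Relb, against 35.9% of all genes, and 3 fell, Rel, Rela and Nfkbiz, against 35.1%. The share of members that moved was thus not above that of all genes. Of the subunits, the alternative-arm Nfkb2 and Relb were higher and the canonical Rel and Rela lower. The canonical Nfkb1 did not pass (-0.04, adjusted p = 0.268). The median difference over the members was -0.06, beside -0.01 over all genes tested.

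Nfkb2, on chromosome 19 (46304320 to 46312385, plus strand, GRCm38), encodes p100, the precursor of p52. Its log2 levels were 12.69, 12.68 and 12.59 in Pers1 libraries, 12.84, 12.87 and 12.72 in Pers2 libraries, 12.42, 12.28 and 12.46 in PAt libraries, and 12.49, 12.27 and 12.13 in Arrested libraries. Every persistent library lay above every PAt and Arrested library, and the difference was 0.39 ± 0.05 (SE; adjusted p = 1.32e-06), a ratio of 1.31. In Timer- cells Nfkb2 was at 11.22, 11.13 and 11.18 in Tnaive and 12.27, 12.11 and 12.33 in Teff, so that naive cells were the lowest of the 6 populations by about a log2 unit. Exons of Nfkb2 share 531 bases with AC114539.1 and 299 bases with Psd, both on the opposite strand, and the strand setting of the counting is not given in the sources used here, so reads of these genes cannot be told apart.

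Relb encodes the partner of p52 and lies on chromosome 7 (19606217 to 19629438, minus strand). Its levels were 11.49, 11.48 and 11.43 in Pers1 and 11.53, 11.66 and 11.44 in Pers2, against 11.30, 11.18 and 11.23 in PAt and 11.40, 11.37 and 11.17 in Arrested. The ranges did not overlap but were close, and the difference was 0.23 ± 0.05 (adjusted p = 4.68e-04), a ratio of 1.17. Tnaive libraries were at 10.51, 10.45 and 10.24, far below the rest.

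Rel encodes c-Rel and lies on chromosome 11 (23736847 to 23770970, minus strand). Its levels were 10.41, 10.33 and 10.04 in Pers1 and 10.31, 10.20 and 10.29 in Pers2, against 10.88, 10.92 and 10.83 in PAt and 10.71, 10.40 and 10.66 in Arrested. All PAt libraries stood above all persistent libraries, and 1 Arrested library (10.40) fell inside the persistent range. Rel was lower in the persistent populations by 0.47 ± 0.06 (adjusted p = 4.79e-07), a ratio of 0.721. PAt had the highest Rel of the 6 populations, and Tnaive, at 10.03, 9.91 and 10.02, the lowest.

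Rela, on chromosome 19 (5637483 to 5648130, plus strand), encodes the main activating subunit p65. Its persistent libraries ran from 12.09 to 12.25 and its PAt and Arrested libraries from 12.35 to 12.56. The groups did not overlap, and the difference was -0.26 ± 0.04 (adjusted p = 2.01e-06). Nfkb1, which encodes the p50 precursor (chromosome 3, 135584655 to 135691547, minus strand), ran from 13.66 to 13.87 in the persistent and from 13.72 to 13.86 in the PAt and Arrested libraries. Its difference was -0.04 (95% interval -0.10 to 0.03, adjusted p = 0.268), although it fell by 0.10 with median-centred libraries (adjusted p = 0.00639) and by 0.09 after quantile normalisation (adjusted p = 0.00773).

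The opposite movements were set side by side within each library, a choice made after the values were seen and given as a description. The log2 difference of Nfkb2 and Rel ran from 2.29 to 2.67 in the persistent libraries, from 1.36 to 1.87 in PAt and Arrested, from 1.70 to 1.90 in Teff and from 1.15 to 1.22 in Tnaive. For Relb and Rela it ran from -0.79 to -0.49 in the persistent libraries, from -1.19 to -1.12 in PAt and Arrested, from -0.99 to -0.76 in Teff and from -1.91 to -1.74 in Tnaive. Both differences kept persistent libraries above PAt and Arrested libraries. The pairs were chosen for their opposite movements, so this order adds no separate result. Such a difference within a library shows unequal change and does not say which gene moved.

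**Figure D2:**
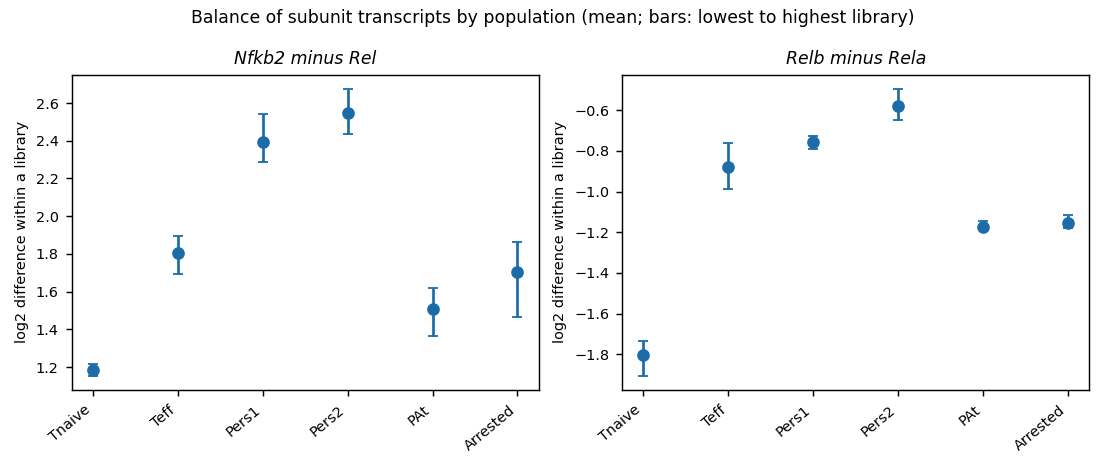
Log2 difference of Nfkb2 and Rel (left) and of Relb and Rela (right) within a library, by population; points are means of 3 libraries and bars run from the lowest to the highest. Pers2 had the highest mean in both panels (2.55 and -0.58) and Tnaive the lowest (1.18 and -1.80).

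Among the inhibitors, Nfkbiz had the largest difference that passed. It encodes IkappaBzeta, a nuclear protein that can also activate transcription (chromosome 16, 55811375 to 55838899, minus strand). Its levels were 12.33, 12.10 and 11.96 in Pers1 and 12.19, 12.05 and 11.95 in Pers2, against 13.09, 13.01 and 12.55 in PAt and 12.998, 12.80 and 12.56 in Arrested. The groups did not overlap, and the difference was -0.74 ± 0.11 (adjusted p = 2.78e-06), a ratio of 0.5997. The 17 immediate early genes, which answer quickly to stimulation, mostly moved the same way: 12 fell and 1 rose, with a median of -0.44, and their summed level was 16.40 to 16.61 in persistent and 17.33 to 17.49 in PAt and Arrested libraries. Their part in the fall of Nfkbiz was not tested.

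Nfkbia, Nfkbid and Nfkbie did not pass in this comparison. Nfkbia (chromosome 12, 55489410 to 55492647, minus strand), the classical feedback inhibitor, differed by -0.07 (95% interval -0.24 to 0.10). Nfkbid (chromosome 7, 30421732 to 30428746, plus strand), which encodes the nuclear protein IkappaBNS, differed by -0.03 (-0.15 to 0.09). Nfkbie (chromosome 17, 45555703 to 45563169, plus strand), which encodes IkappaBepsilon, differed by 0.05 (-0.05 to 0.15), and its sign turned with median centring (-0.01) and quantile normalisation (-0.02).

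Tnfaip3 encodes A20, an enzyme that edits ubiquitin chains and shuts off signalling to NF-kappaB (chromosome 10, 19000910 to 19015657, minus strand). Its Pers1 libraries were at 14.56, 13.93 and 13.62, its Pers2 libraries at 14.73, 14.13 and 13.84, its PAt libraries at 15.30, 14.67 and 14.09, and its Arrested libraries at 15.19, 14.39 and 14.02, each in the order of replicates 1, 2 and 3. Tnaive was at 15.01, 14.03 and 13.24 and Teff at 14.78, 13.92 and 13.26. All groups overlapped, and the difference between persistent and PAt and Arrested populations, -0.47 ± 0.29, did not pass (adjusted p = 0.15). Libraries of the same replicate number stood together, however, and with the replicate number as a block Tnfaip3 fell by the same 0.47 with an SE of 0.07 (adjusted p = 8.25e-06).

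**Figure D3:**
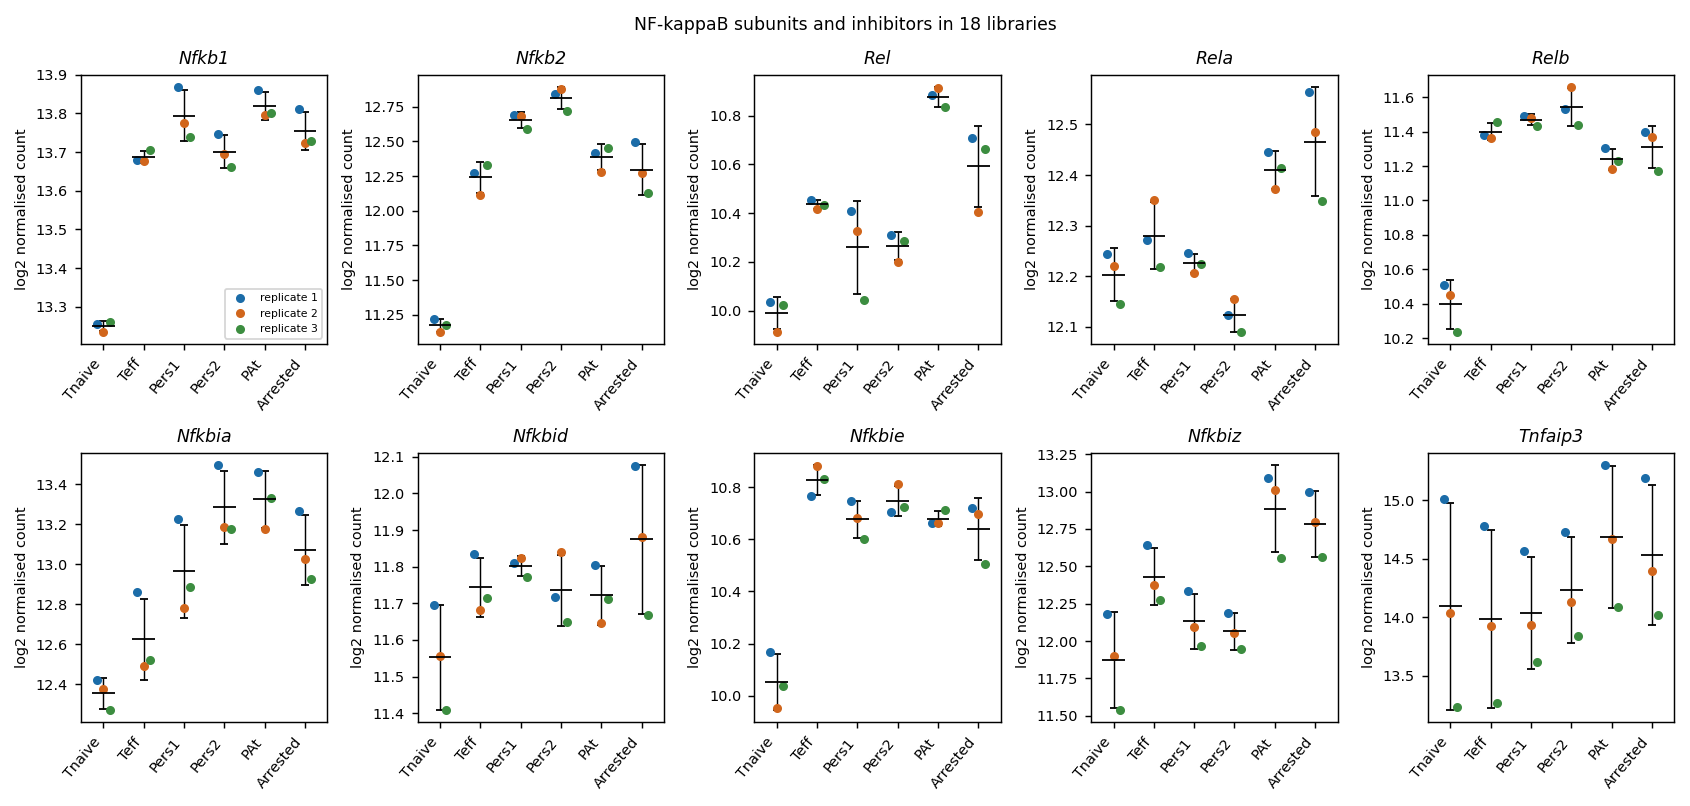
Log2 normalised count of each gene (vertical axis, a scale of its own in each panel) in the 6 populations; points are libraries coloured by replicate number, horizontal lines are means and bars are SD over 3 libraries. Nfkb2 and Relb were highest in Pers2, Rel was highest in PAt, and the Tnfaip3 points separated by replicate number in every population.

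The replicate number was therefore examined as a term for every gene, a test chosen after the values were seen. It passed for 3 members, Tnfaip3 (adjusted p = 2.71e-09), Nfkbiz (1.01e-05) and Nfkbia (1.98e-04), where 3.84% of all genes passed. It took 75.8% of the sum of squares of Tnfaip3, 17.8% of that of Nfkbiz and 11.98% of that of Nfkbia, beside a median of 2.50% over all genes, and only 4 genes of 13190, Tnfaip3 included, had a share as large as Tnfaip3. In all 6 populations the library numbered 1 was the highest and the library numbered 3 the lowest for Tnfaip3, with a mean gap of 1.25, and for Nfkbiz, with a mean gap of 0.43. For Nfkbia the library numbered 1 was the highest in all 6. The term also passed for 8 of the 17 immediate early genes, but not in 1 order: Nr4a1 deviated by 0.26, -0.07 and -0.19 for replicates 1, 2 and 3, and Jun by -0.26, 0.02 and 0.23 (both chosen after their values were seen). None of the 27 upstream kinases and adaptors passed. What the replicates differed in was not tested.

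**Figure D4:**
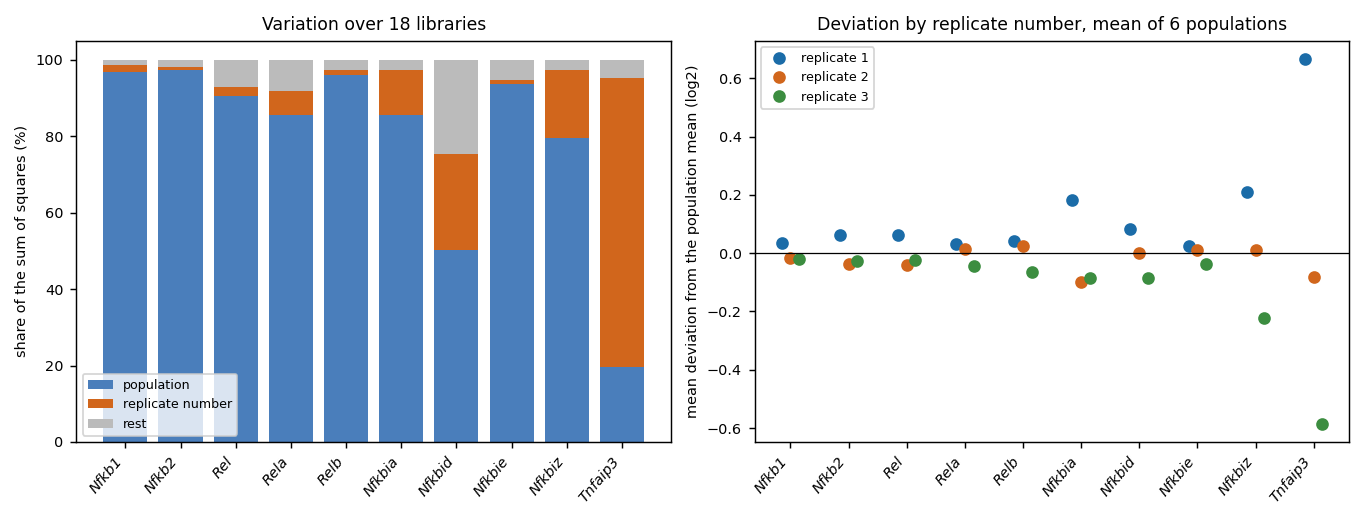
Left, share of the sum of squares over 18 libraries (%) that population, replicate number and the rest took for each gene. Right, mean deviation from the population mean (log2) of the libraries of each replicate number over 6 populations; Tnfaip3 stands out with 75.8% by replicate number and deviations of 0.67, -0.08 and -0.59.

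Deviations from the population means were shared by some members. Over the 18 libraries, which share 3 replicate numbers, Pearson's r of these deviations was 0.95 for Nfkbiz and Tnfaip3, 0.86 for Relb and Nfkbid, and 0.76 for Nfkbia and Tnfaip3. These are descriptions, and no p is attached.

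The second question was how activation without Foxp3 reporter activity differed from the naive state (Teff against Tnaive). Nfkb2 and Relb were called, 2 of 10 where 11.2% of all genes were, and 6 rose by adjusted p alone (Nfkb1, Nfkb2, Rel, Relb, Nfkbie and Nfkbiz), where 31.3% of all genes rose. None fell, where 27.7% of all genes fell. The median over the members was 0.44, beside 0.00 over all genes. Nfkb2 rose by 1.07 ± 0.08 (adjusted p = 9.65e-11) and Relb by 1.00 ± 0.07 (adjusted p = 1.42e-10). Both stood at the fold threshold, so that median centring left 0 of 10 called and quantile normalisation 1, and leaving out Teff replicate 3 or Tnaive replicate 3 also left 1, while both still rose. Nfkbie rose by 0.77 ± 0.07, Nfkbiz by 0.56 ± 0.15, Rel by 0.45 ± 0.08 and Nfkb1 by 0.44 ± 0.04. Rela differed by 0.08 (95% interval -0.03 to 0.19). Nfkbia differed by 0.27 and Nfkbid by 0.19, and both rose with the replicate block (adjusted p = 4.53e-04 and 0.0164). All 7 tested myeloid and dendritic cell markers and all 7 B cell markers rose here too, by medians of 4.02 and 2.41. Of the 6 CD8 T cell and NK cell markers 5 rose and 1 fell, with a median of 1.73. The cells are labelled as CD4+, and the part of these markers in the rises was not tested.

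PAt and Arrested were next set against Tnaive, the same 3 libraries that Teff was compared with. Here 9 of 10 rose, all but Tnfaip3, where 26.9% of all genes rose, and none fell, where 23.8% did. Nfkb2 alone was called (1.17 ± 0.07, adjusted p = 2.39e-12), where 7.90% of all genes were. Nfkbiz rose by 0.96 ± 0.13, Relb by 0.88 ± 0.06, Nfkbia by 0.84 ± 0.10, Rel by 0.74 ± 0.07, Nfkbie by 0.61 ± 0.06 and Nfkb1 by 0.54 ± 0.04, while Nfkbid (0.24) and Rela (0.24) rose least. Tnfaip3 differed by 0.52 ± 0.36 (adjusted p = 0.239) and rose with the replicate block (adjusted p = 6.44e-05). The median over the members was 0.68, beside -0.01 over all genes. Nfkbid no longer passed with median centring (adjusted p = 0.0646) or without Tnaive replicate 3 (0.0878). Of the 7 myeloid and dendritic cell markers 2 rose and 1 fell, while all 7 B cell markers rose, with a median of 1.83.

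Against Teff, which serves both of the next comparisons and the one with Tnaive, the persistent populations had more Nfkb2 (0.49 ± 0.07, adjusted p = 1.52e-06) and more Nfkbia (0.50 ± 0.10, adjusted p = 2.23e-04), 2 members higher where 29.8% of all genes were. Rel (-0.17, adjusted p = 0.048) and Nfkbiz (-0.33, adjusted p = 0.0336) were lower, 2 members where 28.9% of all genes were, and none was called, where 8.31% of all genes were. The falls of Rel and Nfkbiz sat near the threshold and were lost without a trend in the variances (adjusted p = 0.0616 and 0.0613) and when single libraries were left out, among them Teff replicate 1 (0.118 and 0.202). Rela differed by -0.11 (adjusted p = 0.0512) and fell with the replicate block (0.0267). All 7 B cell markers fell here (median -1.62), as did 6 of 7 myeloid and dendritic cell markers (median -2.87) and all 6 CD8 T cell and NK cell markers (median -1.77), and their part was not tested.

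PAt and Arrested had more Nfkb1, Nfkbia, Nfkbiz, Rel and Rela than Teff, 5 members where 24.8% of all genes rose, and less Nfkbie, 1 member where 27.9% fell. None was called, where 6.88% of all genes were. Nfkbia rose by 0.57 ± 0.10 and Nfkbiz by 0.41 ± 0.13, Rel by 0.30 ± 0.07, Rela by 0.16 ± 0.05 and Nfkb1 by 0.10 ± 0.04, and Nfkbie fell by 0.17. Without Teff replicate 3 only 2 members passed, Nfkb1 was lost without a trend in the variances (adjusted p = 0.0687), and Nfkbie was lost after quantile normalisation (adjusted p = 0.0533). Tnfaip3 differed by 0.62 ± 0.36 (adjusted p = 0.149) and rose with the replicate block (adjusted p = 6.20e-06). Of the B cell markers 5 of 7 fell (median -0.58), as did all 7 myeloid and dendritic cell markers (median -2.90) and all 6 CD8 T cell and NK cell markers (median -1.43), and their part was not tested.

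Within each pair of Timer+ populations no member passed. Between Pers2 and Pers1 none was called (0.190% of all genes were) and by adjusted p none rose (6.02%) or fell (4.56%). Between Arrested and PAt none was called (0.121%) and none rose (2.07%) or fell (2.97%). With the replicate block Nfkbia was higher in Pers2 than in Pers1 by 0.32 (adjusted p = 7.96e-04), and in Arrested it was lower than in PAt by 0.25 (adjusted p = 0.00992), as was Rel by 0.29 (adjusted p = 0.0276).

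The last question was whether the step from PAt and Arrested to the persistent populations differed from the step from Tnaive to Teff, tested as the difference of both differences, which share no library. Of the 10 genes 7 had a lower value for the persistent step (all subunits, Nfkbie and Nfkbiz), where 25.5% of all genes did, and none a higher one, where 23.2% did. Nfkbiz alone was called (-1.30 ± 0.18, adjusted p = 5.88e-06), where 8.42% of all genes were. Rel differed by -0.92 ± 0.10, Relb by -0.77 ± 0.09, Nfkbie by -0.72 ± 0.08, Nfkb2 by -0.67 ± 0.09, Nfkb1 by -0.48 ± 0.05 and Rela by -0.34 ± 0.06. These 7 genes were also higher in PAt and Arrested than in Tnaive, so both steps began at unequal levels. Rel and Nfkbiz rose in the one step and fell in the other, whereas Nfkb2 and Relb rose in both, by less in the persistent step. With the replicate block Nfkbia (adjusted p = 4.16e-04), Nfkbid (0.0271) and Tnfaip3 (0.0215) were lower too. Some other lists also had lower values for the persistent step. These were all 6 markers of activated or memory T cells (median -2.18), 12 of 17 immediate early genes (median -0.87), 6 of 7 myeloid and dendritic cell markers and all 7 B cell markers. Other lists were mixed. Of 6 naive T cell markers 3 had higher values and 1 a lower one (median 0.30). Of 6 regulatory T cell markers 2 were higher and 3 lower, and of 18 other inhibitors and regulators 4 were higher and 6 lower. The lower values were thus not particular to the NF-kappaB genes, and the part of any of these lists was not tested.

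**Figure D5:**
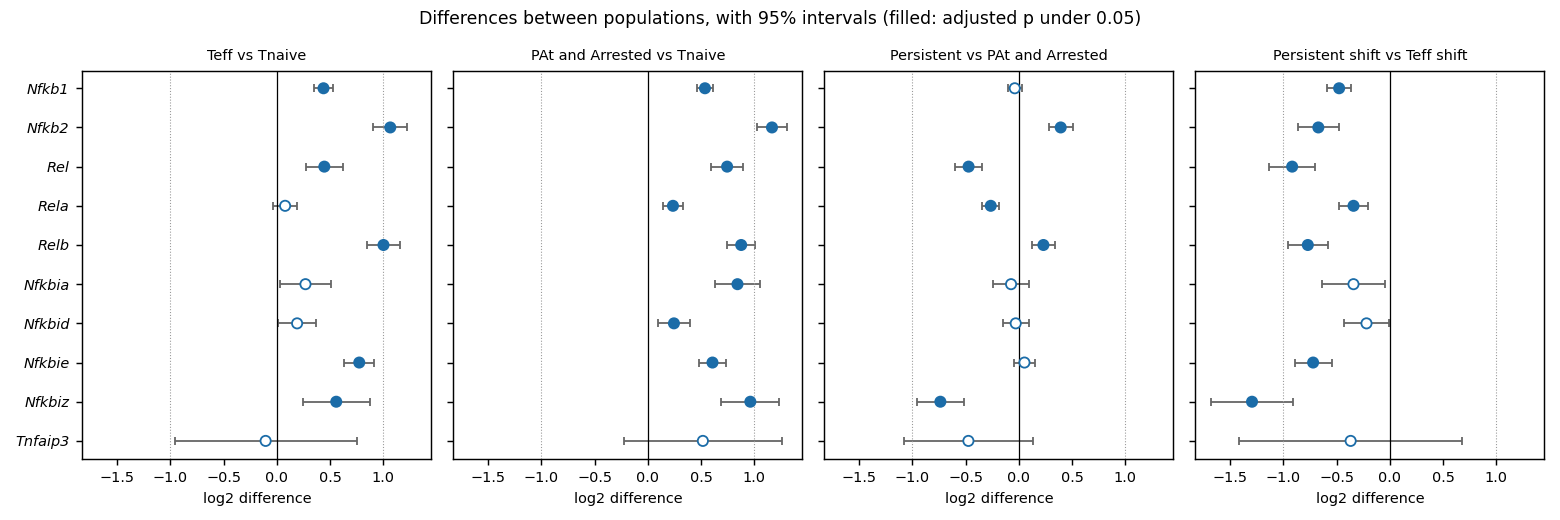
Log2 difference of each gene (horizontal axis) in 4 comparisons, with 95% intervals; filled points have an adjusted p under 0.05 and dotted lines mark an absolute difference of 1. Nfkb2 and Relb lie right of 0 in the first 3 panels, Rel and Nfkbiz change side in the third, and Tnfaip3 has the widest interval in every panel.

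The order of the populations by mean level differed between members. Tnaive was last for all but Rela and Tnfaip3, with ranges apart from the next population in Nfkb1, Nfkb2, Rel, Relb, Nfkbia and Nfkbie. How many of all genes share this order was not counted. Nfkb2 ran from Pers2 (12.81 ± 0.08, SD, n = 3) to Pers1 (12.65 ± 0.06) and PAt (12.38 ± 0.09), with ranges apart, and PAt, Arrested and Teff overlapped. For Rel, PAt (10.88 ± 0.04) stood apart from Arrested (10.59 ± 0.16), which overlapped with Teff (10.44 ± 0.02). Neighbours in the order of Tnfaip3 all overlapped.

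The wider pathway was described by lists, beside the 35.9% of all genes that rose, the 35.1% that fell and the 7.51% called in this first comparison. Of 27 upstream kinases and adaptors 16 fell and 4 rose in the persistent populations against PAt and Arrested, with a median of -0.17, and Malt1, which encodes a paracaspase, alone was called (1.15 ± 0.04). Of 18 other inhibitors and regulators 9 rose and 6 fell (median 0.11), with N4bp1 (1.16 ± 0.04) and Tnip3, an A20-binding protein (1.14 ± 0.09), called. Of 17 receptors that signal to NF-kappaB 10 rose and 5 fell (median 0.33). The TNF receptor gene Tnfrsf1b (1.60 ± 0.04), the IL-33 receptor gene Il1rl1 (1.46 ± 0.09) and Tnfrsf8 (1.20 ± 0.09) were called higher and Tnfrsf25 (-1.20 ± 0.06) lower. Of 24 tested target genes 12 rose and 8 fell (median 0.11), and 3 were called higher and 3 lower. The 4 largest differences among those called were Irf4 (1.43 ± 0.09), which was higher, and Bcl2 (-2.97 ± 0.07), Myc (-1.68 ± 0.05) and Lta (-1.36 ± 0.06), which were lower. The upstream list thus mostly fell, while the other lists moved in both directions.

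In Teff against Tnaive, where 11.2% of all genes were called, the kinase Map3k8 (2.02 ± 0.07) and Malt1 (1.47 ± 0.06) were the upstream genes called. Receptors had a median of 0.87, with 7 called higher and 1 lower, led by Il1r1 (3.88 ± 0.17) and Il1rl1 (2.71 ± 0.12). Targets had a median of 0.60, with 8 called higher and 2 lower, led by Bcl2a1d (3.76 ± 0.09) and Irf8 (3.73 ± 0.14). Bcl2a1d has near-identical copies that may share its reads. Markers of myeloid and dendritic cells and of B cells rose in this comparison too, by medians of 4.02 and 2.41. Their part in the rises of Irf8 and of the other genes named was not tested. In PAt and Arrested against Tnaive, where 7.90% of all genes were called, 7 receptors and 10 targets were called higher and none lower, led by Il1rl1 (4.62 ± 0.10), Tnfrsf4 (3.71 ± 0.07), Il2ra (6.93 ± 0.08) and Cd83 (3.93 ± 0.06). Map3k8 (2.58 ± 0.06) and Traf1 (1.03 ± 0.05) were the upstream genes called there.

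Genes outside the list with the most similar pattern were taken by Pearson's r over the 18 libraries, whose points share 6 populations and 3 replicate numbers. Nfkb2 was most like Adora2a (r = 0.99), Bmp7 (0.99) and B4galnt4 (0.99), and Relb most like Ptpn1, Il3ra and Syt11 (0.98 each). Nfkb1 was most like Pou2f2, Arid5b and Rnf216 (0.97 each), Rel like Adamts6 (0.93), Slc39a13 (0.93) and Specc1 (0.92), and Rela like Klc4, Nod1 and Ilvbl (0.90 each). Nfkbie was most like Hap1 (0.98), Rgs3 and Zfp821 (0.97 each), Nfkbia like Mir1198 (0.97), Zdhhc23 (0.96) and 2900026A02Rik (0.94), and Nfkbid like Rbm42, Trabd (0.89 each) and Sqstm1 (0.88). Nfkbiz was most like Gfi1 (0.92), Notch2 and Pkp4 (0.90 each), and Tnfaip3 like Csrnp1 (0.93), Sik1 and Per1 (0.92 each).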

How the data were processed

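RNA-seq was performed on 18 libraries of 6 sorted T-cell populations. Per the labels, stranded mRNA libraries were sequenced, and the submitters' processing notes name CASAVA 1.8.2, FastQC 0.11.2, TopHat2 2.0.9, DESeq2 and mm10. The deposited values are on the log2 scale, normalised by the authors and shaped like the output of DESeq2's regularised log, which draws differences of genes with few reads towards 0. The values run from -0.02 to 18.89. Read counts were not analysed here, so depth and counting error are unknown.

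Genes with a mean of at least 3 were tested (13190 of 15402) with no pseudocount. A linear model of the 6 populations over 18 libraries (12 residual degrees of freedom) was fitted with limma 3.58.1 in R 4.3.3, with a variance trend and Benjamini-Hochberg adjustment over all genes, and was tested on simulated data. All adjusted p-values are from limma. Calls followed the thresholds of the study (adjusted p under 0.05, with a log2 difference over 1 in size). Alternatives were another or no filter, no trend, only the populations compared, median centring, quantile normalisation, a replicate block, leaving out each library, and adjusted p alone. Median centring moved the median difference of all genes by less than 0.1 in every comparison.

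The 10 genes and the lists were chosen with earlier results of these data known. All 10 were named. For each list, up to 4 called genes with the largest difference were eligible to be named for the persistent populations against PAt and Arrested and up to 2 for other comparisons, and the 3 most correlated genes were named for each member, leaving out symbols turned into dates. The reported fit has no replicate term. Blocked values are printed only where they change whether the adjusted p is under 0.05. They rest on the reading that libraries with the same number share a pool of mice, which the deposited design implies but does not state. Deviations from the population means correlated with a median r of 0.17 over 45 pairs of libraries with the same number (42 above 0) and -0.06 over 90 pairs with different numbers. Gene positions are from GENCODE vM21 (GRCm38), promoters from RefSeq, and figures from matplotlib 3.10.9 in Python 3.11.15.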

Additional observations from a re-analysis of the deposited data

Results flagged for a closer look

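For 7 genes the change from PAt and Arrested to the persistent populations differed from the change from Tnaive to Teff, by a test of the difference itself in limma. The log2 differences between both changes were -1.30 for Nfkbiz, -0.92 for Rel, -0.77 for Relb, -0.72 for Nfkbie, -0.67 for Nfkb2, -0.48 for Nfkb1 and -0.34 for Rela. The same genes were also higher in PAt and Arrested than in Tnaive, so both changes began at unequal levels. Groups of 3 libraries are too small for the test of single outlying samples. Myeloid and dendritic cell markers rose in Teff by a median of 4.02, and their part in these values was not tested.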

How the results depend on the processing

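With adjusted p alone in place of both thresholds, the genes that passed numbered 9357 for Persistent vs PAt and Arrested (990 with both thresholds), 7785 for Teff vs Tnaive (1472), 7739 for Persistent vs Teff (1096), 6684 for PAt and Arrested vs Tnaive (1042), 6950 for PAt and Arrested vs Teff (908), 1395 for Pers2 vs Pers1 (25), 665 for Arrested vs PAt (16) and 6420 for Persistent shift vs Teff shift (1110), and the members numbered 5, 6, 4, 9, 6, 0, 0 and 7. Members called in Teff vs Tnaive were 0 with median centring and 1 with quantile normalisation, against 2. Members with an adjusted p under 0.05 numbered 2 in place of 4 for Persistent vs Teff without a variance trend, and 1 in place of 0 for Pers2 vs Pers1 in a fit of these populations only. The replicate block, which pairs libraries by number, gave 1 for Pers2 vs Pers1 and 2 for Arrested vs PAt, made 12 of the 80 member results pass and lost none. With 1 library left out, the members called ranged from 1 to 2 for Teff vs Tnaive, 1 to 2 for PAt and Arrested vs Tnaive and 0 to 1 for PAt and Arrested vs Teff, and by adjusted p from 2 to 4 for Persistent vs Teff, 2 to 7 for PAt and Arrested vs Teff, 0 to 1 for Pers2 vs Pers1 and 0 to 1 for Arrested vs PAt. All genes called in Arrested vs PAt ranged from 12 to 26, the latter without Arrested replicate 3. Signs turned only in member values that did not pass. With median centring these were Nfkbie Persistent vs PAt and Arrested (-0.0125), Rela Teff vs Tnaive (-0.0055), Nfkb1 (-9e-04) and Nfkbid (-0.0356) Persistent vs Teff, and Rel Pers2 vs Pers1 (-0.0153). With quantile normalisation they were Nfkbie Persistent vs PAt and Arrested (-0.0172), Tnfaip3 Teff vs Tnaive (0.0136) and Nfkbid Persistent vs Teff (-0.0165). The cause was not tested. Of 750 member values with 1 library left out, 19 turned sign. These belonged to Nfkbid Persistent vs PAt and Arrested (-0.0813 to 0.0202) and Persistent vs Teff (-0.0055 to 0.0706), Rel Pers2 vs Pers1 (-0.1025 to 0.0792), Nfkbiz Pers2 vs Pers1 (-0.15 to 0.0339) and Arrested vs PAt (-0.268 to 0.0103), Nfkbie Arrested vs PAt (-0.0801 to 0.0281), and Tnfaip3 Teff vs Tnaive (-0.5336 to 0.3511), Persistent vs Teff (-0.2135 to 0.5429), Pers2 vs Pers1 (-0.0513 to 0.4599), Arrested vs PAt (-0.4778 to 0.1585) and Persistent shift vs Teff shift (-0.8255 to 0.0592).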
